A study of Mus musculus with 6 samples.

Results

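The 10 genes described here encode factors that make, use or degrade the mRNAs of the replication-dependent histones: *Npat*, *Casp8ap2*, *Slbp*, *Lsm10*, *Lsm11*, *Zfp473*, *Cpsf3*, *Sympk*, *Mif4gd* and *Eri1*. They were chosen by name for this role, and all 10 had a row among the 13426 genes of the deposited table. Early LPre-B cells, the large pre-B cells of the bone marrow that precede the late large pre-B stage, were sorted from adult mice and profiled by RNA-seq after depletion of ribosomal RNA, with 3 libraries per group. Ctrl mice were Upf1 Flox/Flox with Mb1 +/+, and Upf1-cKO mice were Upf1 Flox/Flox with Mb1 Cre/+, so both groups carried loxP sites around internal exons of *Upf1* on both alleles. Cre was expressed from the *Cd79a* (Mb1) locus, which restricts it to the B lineage and alters that locus itself. The comparison asks how transcripts differ when *Upf1*, which encodes an RNA helicase of nonsense-mediated mRNA decay (NMD), is deleted in these cells.

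Replication-dependent histone mRNAs are made in S phase and are the main class of animal mRNAs that end without a poly(A) tail. Instead they end in a conserved stem-loop that is bound by SLBP and later serves translation and decay, and the pre-mRNA is cut downstream of it with the help of the U7 small nuclear ribonucleoprotein (snRNP). UPF1 is itself known to act with SLBP in the rapid decay of these mRNAs when DNA synthesis stops.

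Of the 10 genes, 3 were lower in Upf1-cKO cells and 0 were higher at an adjusted p below 0.05 (limma), while 25.0% of all genes tested were lower and 27.7% were higher. The 3 were *Slbp*, *Mif4gd* and *Npat*. *Slbp*, the stem-loop binding protein, stood at 47.1% of its Ctrl mean, *Mif4gd*, a partner of SLBP in translation, at 61.0%, and *Npat*, the activator of histone gene transcription, at 80.0%. The U7 snRNP genes *Lsm10* and *Lsm11*, the gene of its interactor *Zfp473*, those of the cleavage complex (*Cpsf3* and *Sympk*), the exonuclease gene *Eri1* and *Casp8ap2* were not called. The median log2 fold change over the 10 was -0.05, against 0.01 over all genes. It was -0.09 without Ctrl library 2 and -0.03 without Upf1-cKO library 2, -0.16 with median centring (all genes -0.10) and 0.15 with scaling to total reads (all genes 0.19). The 6 libraries did not overlap between groups for 5 of the 10, which compares with 58.8% of all genes. Values are normalised reads, that is reads per 1e6 of the effective library size, and log2 fold changes are Upf1-cKO minus Ctrl of log2(normalised reads + 1).

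Recovered reads ranged from 9732498 to 11006834 per library. *Upf1*, counted over the whole gene, had 260.0, 203 and 259 normalised reads in Ctrl and 308, 283 and 299.7 in the libraries labelled Upf1-cKO (log2 fold change 0.31, SE 0.089, adjusted p = 0.0070, and 0.19 on the log2 scale without Ctrl library 2), so the row was not lower in them. It does not resolve the removed exons, and it checks the labels no further. The B lineage markers *Pax5* and *Vpreb1* were present in every library, with 209 to 256 and 165 to 179.9 normalised reads in Ctrl and 214 to 219 and 220.2 to 236 in Upf1-cKO. *Vpreb1* was called higher (log2 fold change 0.40, adjusted p = 0.00018, limma), while *Pax5* was not called. Other genes of the B lineage list, chosen here after their values were seen, differed strongly in both directions. The recombination genes *Dntt* (log2 fold change 1.64), *Rag1* (1.55) and *Rag2* (1.16) were higher, and *Cd79a* (-1.58), the locus that carries Cre, *Vpreb3* (-1.07), *Ptprc* (-0.84) and *Il7r* (-0.61) were lower. Of 11 neutrophil and myeloid markers 6 were higher in Upf1-cKO, with summed levels of 44.1 to 154 in Ctrl, the highest in Ctrl library 1, and 388 to 533 in Upf1-cKO. *S100a8*, *S100a9* and *Ltf* were among the 6, the macrophage markers *Csf1r* and *Adgre1* were not, and no marker on that list was at 0 reads in all libraries. The 6 calls became 3 without Ctrl library 2, 2 without Ctrl library 3 or Upf1-cKO library 1 or 2, 1 without Upf1-cKO library 3 and 7 without Ctrl library 1. Erythroid markers with a row (3 of 7) summed to 6.82 to 11.8 in Ctrl and 8.39 to 9.42 in Upf1-cKO, T and NK cell markers with a row (2 of 8) to 1.17 to 1.59 and 3.79 to 5.27, and the 6 mature B and plasma cell markers to 37.2 to 51.2 and 30.2 to 32.9. In bulk RNA, fewer cells of a type and less RNA per cell cannot be told apart. The part of other cell types in the values below was not tested.

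**Figure D1:**
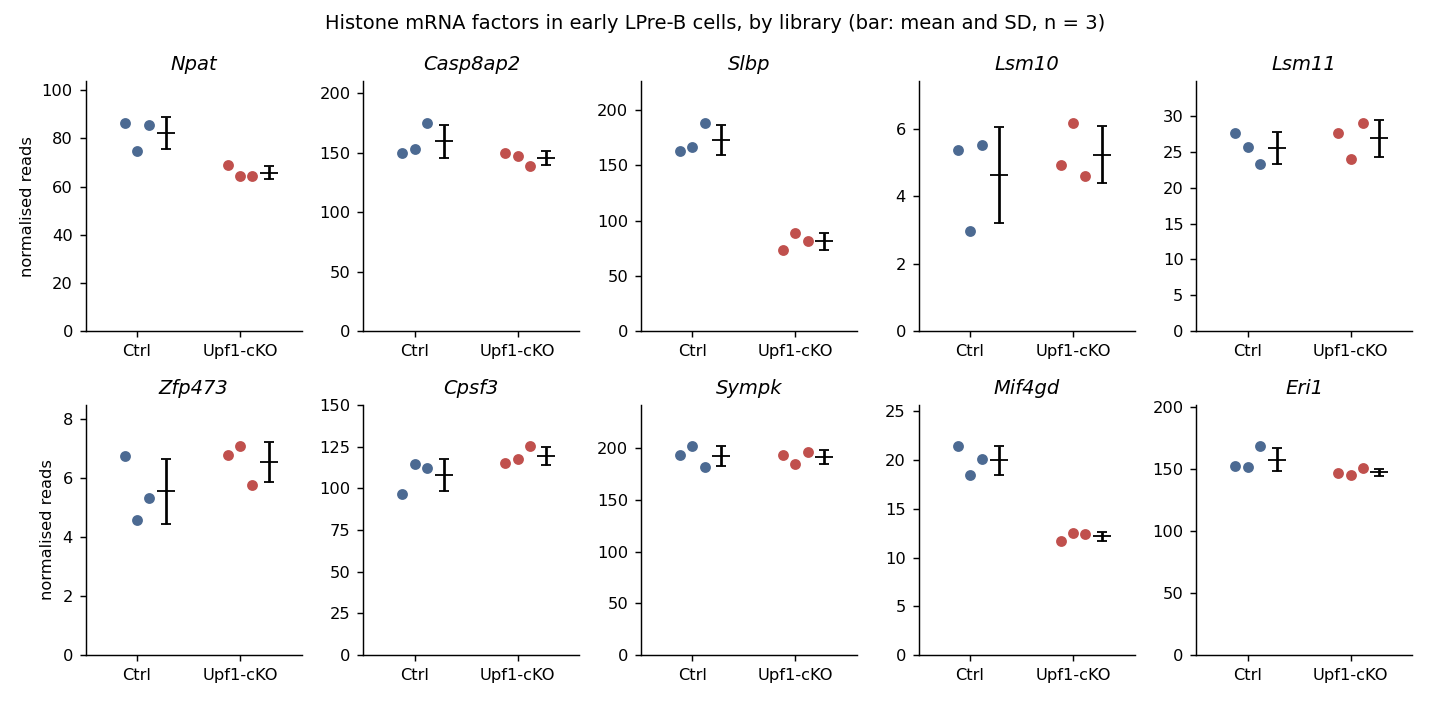
Normalised reads of each gene in the 3 Ctrl and 3 Upf1-cKO libraries (points, y axes from 0), with the mean and SD beside them. *Slbp*, *Mif4gd* and *Npat* lie lower in every Upf1-cKO library than in every Ctrl library, while the points of *Sympk*, *Lsm10*, *Lsm11*, *Zfp473* and *Casp8ap2* interleave.

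The stem-loop is shown first because it is the element that these factors bind, cut behind or trim. In the 57 replication-dependent histone genes of the table, GENCODE M21 transcripts (GRCm38) were searched after the coding sequence for a 16-base hairpin with a 6-base stem and a 4-base loop. The hairpin had to begin with GG, and so to end in CC, and only the first in each gene was kept. It was found in 39 genes, of 45 with an annotated 3′ end of sufficient length, at 21 to 58 bases after the coding sequence (median 31). Under this rule, which fixes part of the sequence, 8 distinct hairpins occurred. The 3 commonest are given with the gene in each class whose log2 fold change was lowest, in DNA letters with the stem arms in capitals.
H2ac8 (21 genes share it, chr13:23570668-23570683, minus strand): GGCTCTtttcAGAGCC
H4c18 (6 genes, chr13:21831798-21831813, minus strand): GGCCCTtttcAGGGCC
H3c3 (5 genes, chr13:23745047-23745062, minus strand): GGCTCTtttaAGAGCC
The median log2 fold change of the histone genes was -1.10 with the first hairpin (range -1.54 to -0.69), -0.82 with the second (-1.69 to -0.66) and -1.33 with the third (-1.48 to -0.998), so the ranges overlapped widely. Many of these genes have near-identical copies, how reads were split among copies was not tested, and single-gene values are uncertain to that extent.

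*Slbp* (Entrez ID 20492, chromosome 5, 33640055 to 33652574, minus strand, GRCm38.p6) encodes the protein that binds this hairpin and stays with the mRNA from processing to translation and decay. Its level was 163, 167 and 189 normalised reads in Ctrl libraries 1 to 3 and 73.8, 88.9 and 81.6 in Upf1-cKO libraries 1 to 3. The highest Upf1-cKO library lay far below the lowest Ctrl library. The group means were 173 ± 13.7 (SD, n = 3) and 81.5 ± 7.56 (SD, n = 3), and the log2 fold change was -1.08 (SE 0.088, adjusted p = 1.05e-08, limma). Over 17 alternatives it lay between -1.19 and -0.88, with adjusted p between 5.04e-27 and 0.00032. The summed neutrophil and myeloid marker level in the same libraries was 154, 73.6 and 44.1 in Ctrl 1 to 3 and 533, 407 and 388 in Upf1-cKO 1 to 3, so that in each group the library with the highest sum had the lowest *Slbp*, and its part in the result was not tested. Without Ctrl library 1, which had the highest sum in Ctrl, 3 of the 10 genes were again called lower. That setting moves the sums of the groups further apart, so it does not test the part of these markers.

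**Figure D2:**
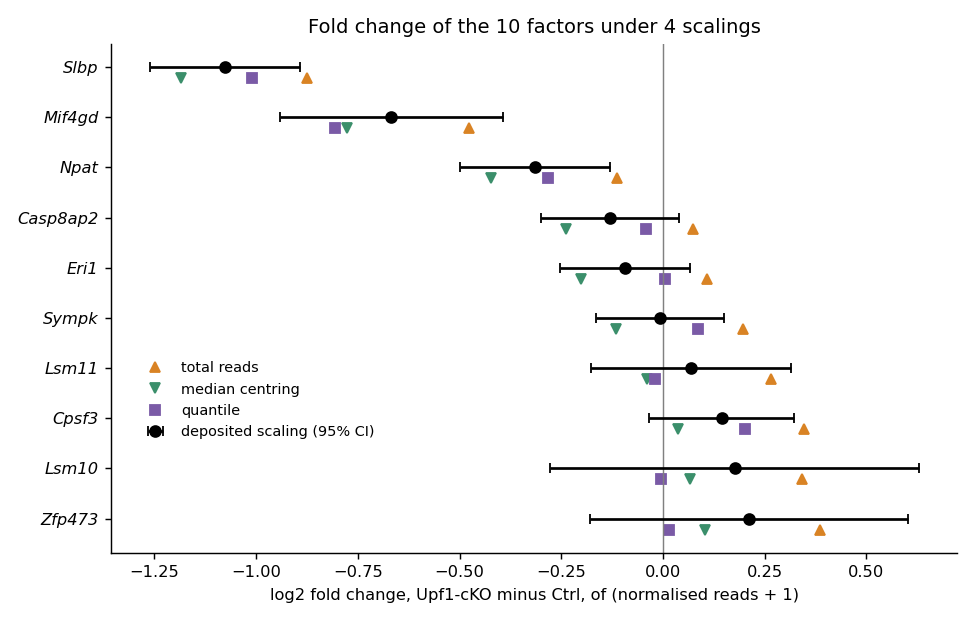
Log2 fold change of the 10 genes (x axis, log2(normalised reads + 1), Upf1-cKO minus Ctrl), with limma's 95% confidence interval on the deposited scaling (black) and the point values after 3 other scalings. The intervals of *Slbp*, *Mif4gd* and *Npat* lie below 0, and scaling to total reads moves every gene to the right.

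Histone mRNAs, the substrates of SLBP, were lower as well. All 57 replication-dependent histone genes were lower in Upf1-cKO cells on the deposited scaling (median log2 fold change -1.18, range -1.91 to -0.54), and at least 55 of 57 were lower under each alternative. Their summed level was 20922, 17617 and 19086 normalised reads in Ctrl and 9559, 10144 and 9765 in Upf1-cKO. Set against *Slbp*, the sum was 128, 106 and 101 times the *Slbp* level in Ctrl and 129, 114 and 120 times in Upf1-cKO, so the groups overlapped. The difference in log2 ratio was 0.12, with an exact two-sided permutation p = 0.3. With 20 ways to assign 6 libraries to the groups, 0.1 is the smallest value possible. Taking the mean log2 value of the histone genes in place of the sum gave a difference of -0.14 (exact permutation p = 0.4), so its sign depended on the form of the sum. The difference of the summed ratio was 0.22 without Ctrl library 1, 0.05 without Ctrl library 3 and 0.07 without Upf1-cKO library 1, the lowest and highest values with each library left out in turn being 0.05 and 0.22.

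**Figure D3:**
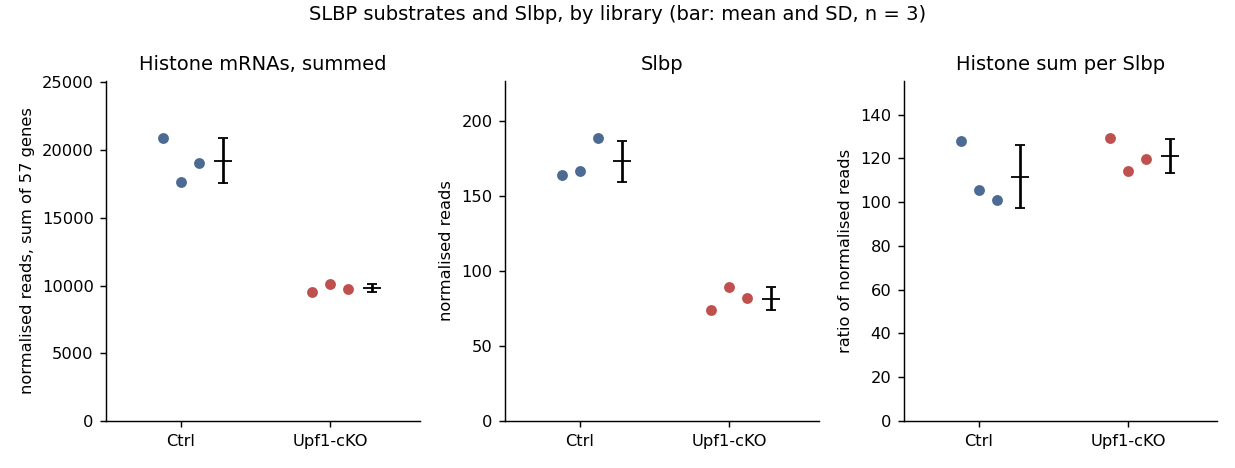
Summed normalised reads of the 57 replication-dependent histone genes (left), normalised reads of *Slbp* (middle) and their ratio (right) in the 3 libraries of each group, with mean and SD. The sum and *Slbp* separate the groups, while the ratio in Ctrl library 1 (128) lies among those of Upf1-cKO (114 to 129).

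Genes of DNA replication, which like histone genes are used in S phase, were lower too: 15 of 20 on the replication and S phase list were lower and 1 was higher (median log2 fold change -0.69, with 2 higher without Ctrl library 1 or with total-read or quantile scaling). Over all genes 25.0% were lower and 27.7% higher. *Mcm4*, a subunit of the replicative helicase, changed by -1.14 and *Cdt1*, which loads it, by -1.08. Of 8 histone chaperone genes 6 were lower and 1 higher (median -0.63), and of 15 mitosis genes 11 were lower and 3 higher (median -0.35), with 5 lower and 3 higher (median -0.15) when scaled to total reads. The 3 higher mitosis calls became 0 without Ctrl library 2 or Upf1-cKO library 3, 1 without Upf1-cKO library 1 or 2 or with the replicate block, and 0 with DESeq2, median centring or no trend. Scaled to the summed replication list rather than to *Slbp*, the histone sum differed by -0.28 on the log2 scale (exact permutation p = 0.1, the smallest possible). Whether the share of cells in S phase accounts for the lower *Slbp* was not tested.

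The genes whose profile over the 6 libraries was most like that of *Slbp*, among 8632 genes with a mean of at least 10 normalised reads, were *Csrp2* (Pearson r = 0.999), *Abi1* (r = 0.998) and *Ptma* (r = 0.998). Their log2 fold changes were -1.80, -0.90 and -0.73. With 6 points in 2 groups, r mainly reflects the group difference, and 1734 genes had r above 0.9.

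*Npat* (chromosome 9, 53536889 to 53575627) encodes a cyclin E-CDK2 target that activates histone genes in histone locus bodies. Its level was 86.5, 74.6 and 85.6 in Ctrl and 68.8, 64.4 and 64.3 in Upf1-cKO, and the groups did not overlap. The log2 fold change was -0.31 (SE 0.088, adjusted p = 0.0058). Scaled to total reads it was -0.11 (adjusted p = 0.34), and over all alternatives the adjusted p ranged from 0.00053 to 0.34, so the call depended on the scaling. *Casp8ap2* (FLASH, chromosome 4, 32615470 to 32653271), a scaffold of the same bodies that also joins U7 snRNP to the cleavage complex, had 149.9, 153 and 175 normalised reads in Ctrl and 150.1, 147 and 139 in Upf1-cKO. The groups overlapped, and the log2 fold change was -0.13 (95% confidence interval -0.30 to 0.04, adjusted p = 0.19).

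Promoter sequences are shown for these 3 genes because their windows held at least 2 of the motif matches searched for. RefSeq windows (GRCm38.p6, from 250 bases before to 50 after the start site) were matched for 9 of the 10 genes, in 12 windows. TTTCCCGC, TTTGGCGC and TTTCGCGC, which are E2F-type motifs, and CCAAT, added after the data had been seen, were searched on both strands. The 250 bases before the start are printed 5′ to 3′ along the gene, with matches in capitals (CCAAT on the opposite strand reads ATTGG).
Slbp (chr5:33652575-33652824, minus strand): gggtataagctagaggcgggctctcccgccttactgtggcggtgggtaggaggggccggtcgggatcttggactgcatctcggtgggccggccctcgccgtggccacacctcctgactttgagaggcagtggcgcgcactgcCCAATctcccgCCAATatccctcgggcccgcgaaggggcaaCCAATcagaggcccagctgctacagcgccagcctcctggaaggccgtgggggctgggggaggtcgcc
Npat (chr9:53536797-53537046, plus strand): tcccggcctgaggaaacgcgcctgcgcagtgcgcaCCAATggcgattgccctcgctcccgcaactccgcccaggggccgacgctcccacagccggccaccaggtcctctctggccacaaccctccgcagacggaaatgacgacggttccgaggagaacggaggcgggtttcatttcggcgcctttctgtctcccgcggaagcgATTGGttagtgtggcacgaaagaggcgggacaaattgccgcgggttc
Casp8ap2 (chr4:32615220-32615469, plus strand): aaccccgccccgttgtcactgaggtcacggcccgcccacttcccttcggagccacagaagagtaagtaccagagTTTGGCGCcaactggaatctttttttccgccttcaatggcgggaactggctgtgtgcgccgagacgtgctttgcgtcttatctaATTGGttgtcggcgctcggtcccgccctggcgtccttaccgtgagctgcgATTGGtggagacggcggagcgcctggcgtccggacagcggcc
The *Slbp* promoter held 3 copies of CCAAT, at -108, -97 and -67 from the start site, which 3.37% of 32851 promoter windows did, while 37.4% held at least 1. An E2F-type motif was present in 1 of the 9 genes, *Casp8ap2* (TTTGGCGC at -176), against 1.84% of windows. CCAAT occurred in 5 of the 9 genes. These 2 counts are per gene, and the 9 genes have 12 windows, while the shares are per window, so they are not like for like. These matches describe letters and say nothing of binding.

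The U7 snRNP recruits the cleavage complex to the histone pre-mRNA. *Lsm10* and *Lsm11* encode the 2 Sm-like proteins particular to it. *Lsm11* (chromosome 11, 45928266 to 45944996) had 27.7, 25.7 and 23.3 normalised reads in Ctrl and 27.6, 24.0 and 29.0 in Upf1-cKO, and the values interleaved. Its log2 fold change was 0.07 (95% confidence interval -0.18 to 0.32, adjusted p = 0.65). *Lsm10* (chromosome 4, 126096562 to 126098584) was low, with 5.36, 2.98 and 5.51 in Ctrl and 4.93, 6.18 and 4.59 in Upf1-cKO. It rested on 29 to 68 reads per library, and its interval of -0.28 to 0.63 (log2 fold change 0.18, adjusted p = 0.52) was the widest of the 10. *Zfp473* (chromosome 7, 44731480 to 44748617), which encodes a zinc finger protein that interacts with the U7 snRNP, had 6.75, 4.60 and 5.31 in Ctrl and 6.78, 7.08 and 5.77 in Upf1-cKO (log2 fold change 0.21, interval -0.18 to 0.60, adjusted p = 0.35), with overlapping groups.

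The pre-mRNA is cut by CPSF3 (CPSF73), with SYMPK as scaffold, in a complex shared with polyadenylated mRNAs. *Cpsf3* (chromosome 12, 21286273 to 21315056) had 96.7, 114.8 and 113 normalised reads in Ctrl and 115.0, 118 and 125 in Upf1-cKO. The groups just failed to overlap, and the log2 fold change was 0.14 (interval -0.03 to 0.32, adjusted p = 0.16). This locus overlaps *Itgb1bp1*. Reads were aligned without use of strand, and the study's methods give no strand setting for the counting. *Sympk* (chromosome 7, 19024377 to 19054623) had 194, 202 and 182 in Ctrl and 194, 185 and 197 in Upf1-cKO. Its log2 fold change was -0.01, and the interval of -0.16 to 0.15 was among the narrowest. Scaled to total reads, *Cpsf3* was higher (0.35, adjusted p = 0.0039, range 0.0039 to 0.74 over its alternatives) and so was *Sympk* (0.20, adjusted p = 0.041, range 0.041 to 0.99), but on that scaling the median over all genes rose to 0.19, that over the 10 genes was 0.15, and 72.8% of calls were higher, against 52.6% on the deposited scaling and 40.7% after median centring.

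SLBP-bound histone mRNA is translated with the help of MIF4GD (SLIP1), which bridges SLBP to the translation initiation machinery. *Mif4gd* (chromosome 11, 115607918 to 115612969) had 21.4, 18.4 and 20.1 normalised reads in Ctrl and 11.7, 12.5 and 12.4 in Upf1-cKO, so every Upf1-cKO library was lower than every Ctrl library. The log2 fold change was -0.67 (SE 0.13, adjusted p = 0.00031), between -0.81 and -0.48 over 17 alternatives. The locus overlaps *Mrps7*, a mitochondrial ribosomal protein gene, which was lower as well (log2 fold change -0.43, adjusted p = 0.0024), and the share of its reads in the *Mif4gd* row was not tested. *Eri1* (chromosome 8, 35465265 to 35495533) encodes the 3′ exonuclease that trims the end of histone mRNA and begins its decay. It had 153, 152 and 168 in Ctrl and 147, 145 and 151 in Upf1-cKO. The groups were separated by a narrow margin, and the log2 fold change was -0.09 (interval -0.25 to 0.07, adjusted p = 0.32). After median centring *Eri1* (-0.20, adjusted p = 0.031) and *Casp8ap2* (-0.24, adjusted p = 0.020) were lower, and their adjusted p ranged over all alternatives from 0.031 to 0.95 and from 0.020 to 0.68.

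Levels were compared between genes per kb of summed exon length. In Ctrl the order was *Slbp* (28.5 ± 2.26 normalised reads per kb, SD, n = 3), *Casp8ap2* (23.4 ± 2.01), *Cpsf3* (20.5 ± 1.87), *Sympk* (18.3 ± 0.938), *Eri1* (17.8 ± 1.04), *Npat* (13.2 ± 1.06), *Mif4gd* (9.94 ± 0.740), *Lsm10* (4.90 ± 1.51), *Lsm11* (3.96 ± 0.341) and *Zfp473* (0.553 ± 0.109). The library ranges of *Cpsf3* and *Sympk*, of *Sympk* and *Eri1* and of *Lsm10* and *Lsm11* overlapped, and those of other neighbours did not. In Upf1-cKO *Slbp* stood at 13.4 ± 1.25, between *Eri1* (16.7) and *Npat* (10.5). Per kb of the longest coding transcript, an alternative added after the data had been seen, *Slbp* was again highest in Ctrl (90.7) and *Casp8ap2* stood below *Sympk* (46.8), *Cpsf3* (43.2) and *Eri1* (31.1) at 23.5. The summed exons of *Slbp* cover 6076 bases and that transcript 1906. On this length *Slbp* in Upf1-cKO (42.7) was above *Eri1* (29.1) and below *Cpsf3* (47.7) and *Sympk* (46.6), so its place in Upf1-cKO depended on the length used.

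The genes ranged from 2 exons in *Lsm10* to 27 in *Sympk*. A transcript annotated as an NMD target was present in 3 of the 10, *Lsm11*, *Cpsf3* and *Sympk*, which is near the 28.9% of 12139 genes with annotated transcripts, and in none of the 3 genes that were lower. The counts are per gene and do not resolve transcripts.

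Across the other genes of histone mRNA metabolism (8 lists), 37 of 70 were lower and 14 were higher in Upf1-cKO, where 25.0% of all genes were lower and 27.7% higher. When scaled to total reads 22 were lower and 18 higher, where 14.4% of all genes were lower and 38.5% higher. The counts by list that follow stand beside these same shares. Of 7 genes of histone gene transcription 5 were lower and 2 higher. *Cdk2*, the kinase that phosphorylates NPAT, changed by -0.81, its partner *Ccne2* by -0.56 and *Pou2f1*, the OCT1 factor used by histone H2B genes, by -0.55. Of 5 genes of Sm proteins that U7 shares with spliceosomal snRNPs 4 were lower (2 when scaled to total reads), among them *Snrpg* (-0.91), *Snrpb* (-0.60) and *Snrpd3* (-0.57). The log2 fold change of *Snrpd3* was -0.32 without Ctrl library 3, in which it was highest (82.1, against 45.7 and 51.8 in Ctrl libraries 1 and 2). Its call was lost without Ctrl library 2 or Upf1-cKO library 1 or 3 (adjusted p = 0.070 to 0.093), without the trend (0.060) and with voom weights (0.051), and its adjusted p reached 0.19 when scaled to total reads, the highest over its alternatives.

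Of 11 genes of the cleavage complex and its cap-binding or elongation partners 7 were lower and 1 higher (4 and 3 when scaled to total reads, 6 and 2 with quantile normalisation, and 2 higher without Ctrl library 2). *Cpsf2*, which pairs with CPSF3 as CPSF100, changed by -0.61 and *Cstf2* by -0.51, while *Srrt* (ARS2), which links the cap-binding complex to 3′ end processing, rose from 417, 415 and 492 normalised reads in Ctrl to 782, 819 and 805 in Upf1-cKO (0.86, adjusted p = 2.56e-08). Of 13 genes of the polyadenylation machinery 6 were lower and 1 higher (0 higher without Upf1-cKO library 3, without the trend or with median centring), with *Pabpn1* (-0.88), *Nudt21* (-0.59) and *Papola* (-0.41) the largest. Within the cleavage machinery the partner of CPSF3 was lower while *Cpsf3* itself and *Sympk* were not called.

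Of 6 translation genes 4 were lower and 2 higher, and 2 were lower without Upf1-cKO library 3, without the trend or when scaled to total reads. *Ctif*, a cap-binding complex partner used in histone mRNA translation, was low and higher in Upf1-cKO (2.07, 1.46 and 1.14 against 4.15, 5.36 and 4.68 normalised reads, log2 fold change 1.17), and *Ddx19b* was higher too (41.3, 43.6 and 42.4 against 88.0, 83.2 and 86.3). *Pabpc1*, the cytoplasmic poly(A)-binding protein, which does not bind histone mRNA tails, changed by -0.91.

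Of 19 decay genes 7 were higher and 5 lower (median 0.18), beside 27.7% higher and 25.0% lower of all genes. With median centring 6 were higher and 8 lower, with quantile normalisation 9 and 6, and with total reads 9 and 4. Their median was 0.03 without Ctrl library 1, 0.04 with quantile normalisation, 0.07 with median centring and 0.37 with total reads. *Lsm5*, of the Lsm1-7 ring that binds oligouridylated tails, changed by -1.11, while *Dis3l2*, an exonuclease for uridylated RNA, rose by 0.93 and *Patl1*, a decapping activator, by 0.85. *Upf1* is itself among the 7. Of 7 genes for turnover of SLBP protein 5 were lower and 0 higher, with *Ccna2* (-0.68), *Cdk1* (-0.49) and *Dcaf11* (-0.24). The 5 became 2 without Upf1-cKO library 1, without the trend or when scaled to total reads, and 3 without Ctrl library 2, without Upf1-cKO library 2 or 3 or with quantile normalisation. *Ccna2* and *Cdk1* encode the cyclin and kinase that mark SLBP for degradation at the end of S phase. The *Dcaf11* call was lost without Ctrl library 2 or Upf1-cKO library 1 or 2 (adjusted p = 0.074 to 0.13), with the replicate block (0.051) and without the trend (0.056), and its adjusted p reached 0.73 when scaled to total reads, the highest over its alternatives. Of the ERI1 paralogues, *Eri2* was lower (-0.44) and *Eri3* higher (0.32), and each lost its call under 1 scaling.

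**Figure D4:**
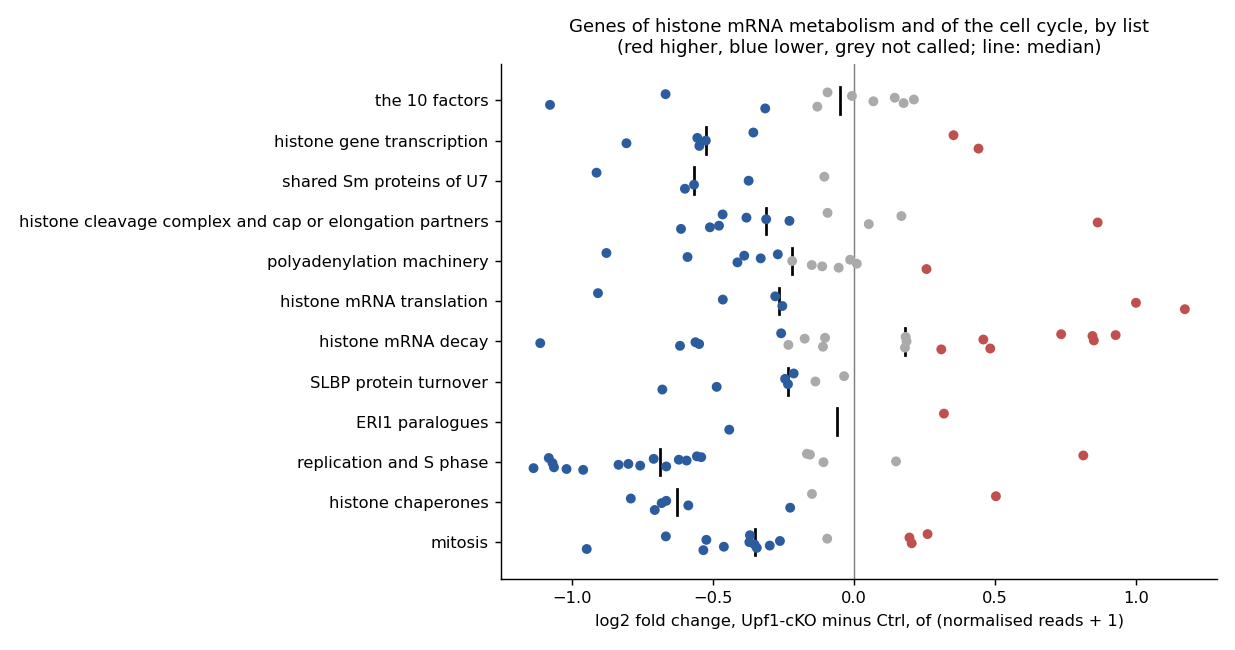
Log2 fold change (x axis, log2(normalised reads + 1), Upf1-cKO minus Ctrl) of each gene by list, with red for higher, blue for lower and grey for not called, and a line at each list's median. The replication list has its median at -0.69, the decay list at 0.18 (0.03 without Ctrl library 1) and the 10 genes at -0.05.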

How the data were processed

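Early LPre-B cells were sorted by the study by surface markers and size from Ctrl and Upf1-cKO mice for 3 libraries per group, with group and replicate as in the labels. Per the labels and the study's methods, reads were trimmed with cutadapt 4.0, aligned to mm10 with HISAT2 without use of strand, counted per gene with featureCounts 2.0.1 and normalised with limma 3.48.0. The deposited table gives a signal on a linear scale for each gene, which equals reads plus 0.5 per 1e6 of an effective library size. Whole reads were recovered for 100% of values (tolerance 0.1).

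Genes were named by Entrez ID from RefSeq GRCm38.p6 (13008 of 13426), with lengths from GENCODE M21 for 12139. A row with no name took 13.8% to 23.8% of the reads, and its part in the difference between total-read and deposited scaling was not tested. limma 3.58.1 in R 4.3.3 was run on log2(value + 1), with intensity trend, robust eBayes, no term but group, and p-values adjusted by Benjamini-Hochberg across the whole table, and was tested on simulated data. Log2(value + 1) understates changes of low genes. The histone to *Slbp* ratio was compared by an exact permutation test over libraries. Alternatives used edgeR 4.0.16 and DESeq2 1.42.0 on recovered reads, a replicate block, voom weights, no trend, 3 scalings, a minimum mean log2 of 1, 2 other treatments of the pseudocount and each library left out. Genes named in the text are the 10 members, *Upf1*, at most 3 genes per pathway list by absolute log2 fold change among those called, at most 2 per comparison list, and the 3 most like *Slbp*. Marker genes, genes that overlap a member and histone genes shown as examples of a hairpin are named outside this rule, and were chosen after their values were seen. The members and lists were chosen with earlier results of these data known. The study describes the 3 libraries of each group as biological replicates.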

Additional observations from a re-analysis of the deposited data

How the results depend on the processing

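Of the 10 genes, 3 were lower in every setting that left out a library (3 to 3) and 0 higher (0 to 0). *Slbp* and *Mif4gd* were lower under all 17 alternatives. Median centring called 5 lower (4355 of 13426 genes in all, against 3351). Total reads called 2 higher (5172 in all, against 3725) and quantile normalisation 1 (3330 in all; *Cpsf3*, 0.20, adjusted p = 0.048). Signs turned for genes that were not called: with total reads for *Casp8ap2* (0.0729), *Eri1* (0.11) and *Sympk* (0.20), with quantile normalisation for *Lsm10* (-0.005), *Lsm11* (-0.019), *Sympk* (0.0868) and *Eri1* (0.0063), and with median centring for *Lsm11* (-0.0393). Leaving out libraries gave -0.0549 to 0.30 for *Lsm10*, -0.0461 to 0.0273 for *Sympk*, 0.0678 to 0.19 for *Cpsf3* (lowest without Ctrl library 1), -0.17 to -0.0603 for *Casp8ap2* and -0.119 to -0.0458 for *Eri1* (nearest 0 without Ctrl library 3), 0.0063 to 0.145 for *Lsm11* (without Ctrl library 3 and Upf1-cKO library 2) and 0.106 to 0.34 for *Zfp473* (without Ctrl libraries 2 and 1), with the sign turning without Ctrl library 2 for *Lsm10* and without Ctrl or Upf1-cKO library 2 for *Sympk*. Pathway genes called lower fell from 37 to 22 with total reads (from 3351 to 1936 over all genes) and were 30 to 37 without single libraries, and those called higher were 13 to 16. The histone to *Slbp* difference turned to -0.14 with mean log2 values, was -0.28 against the replication list and 0.05 to 0.22 without single libraries. Causes were not tested. Same-numbered libraries did not deviate together (correlations 0.13, -0.06 and -0.08, against -0.20 to 0.26 for libraries of unlike number). With 3 libraries per group this cannot exclude a pairing, and the labels give adjacent sample numbers to the Ctrl and Upf1-cKO libraries of the same replicate. With the replicate block 3 of the 10 genes were lower and 0 higher, and the histone to *Slbp* difference was 0.12. *Lsm10* and *Zfp473* rested on under 80 reads per library, and the part of depth in their wide intervals was not tested.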
